A study of Mus musculus with 2 samples.

Results

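The barcodes described here are those of the iMPC library that passed a UMI minimum with over 10% of their UMIs in mitochondrially encoded (mt-) genes. They were chosen by these measured totals. There were 421 such barcodes among the 9540 iMPC barcodes above the minimum, the lowest of which held 8040 UMIs, and this is 4.41% (exact binomial 95% interval 4.01 to 4.84%). The other 9119, with at most 10% mt- UMIs, served as the comparison. In both libraries of the series together, 14930 barcodes reached that UMI minimum. A UMI, or unique molecular identifier, marks 1 captured RNA molecule in the 10x Genomics droplet assay.

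Cells of the iMPC library are induced myogenic progenitors, which the labels describe as mouse embryonic fibroblasts treated with MyoD and the additives F/R/C and kept in F/R/C medium; the design text calls the culture a stable clone. The MEF library came from fibroblasts kept in MEF medium. Both carry the genotype Tg:Pax7-nGFP/C57BL6;DBA2, and each group is 1 library. No difference between groups of cells therefore has a replicate check or a p-value, and all intervals are 95% intervals for counting error only.

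The 13 mt- genes are transcribed inside the mitochondrion and encode subunits of the respiratory chain and ATP synthase. Cytoplasmic mRNA can leave a cell whose plasma membrane is damaged, while RNA enclosed by mitochondrial membranes is retained longer, so a high mt- share is widely used as a filter on damaged cells. Muscle cells also gain mitochondria as they mature, and a high mt- share is found in intact muscle. Satellite cells are the muscle stem cells marked by Pax7, Myog marks committed myoblasts that leave the cell cycle, Ckm (muscle creatine kinase) marks differentiated myocytes, and Dcn (decorin) marks fibroblasts.

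Differentiated cells were over-represented among the high-mitochondrial barcodes, and the genes that stood furthest above the comparison were muscle contraction genes. Myh4, the fast type IIB myosin heavy chain, was at 478 CPM in the high set and at 39.7 CPM in the low set, a log2 ratio of 3.59 (3.54 to 3.65). CPM here is a gene's UMIs, summed over the barcodes of a set, per 1000000 UMIs of all genes other than mt- genes. Ckm was at 452 against 88.8 CPM (log2 ratio 2.35, 2.30 to 2.40). Cox7a1, the muscle form of a subunit of cytochrome c oxidase that is encoded in the nucleus, was at 170 against 42.6 CPM (log2 ratio 1.996, 1.91 to 2.08). These genes lie at chr11:67238029-67260446, chr7:19404776-19422841 and chr7:30184144-30186078, all on the plus strand of GRCm38 (GENCODE M21).

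The 250 bases before the RefSeq start of each gene (GRCm38.p6, plus strand, 5′ to 3′) are shown for these 3 genes, which were higher in the high set. Cox7a1 and Ckm were lower in its barcodes over 20% mt- than in those at 10 to 20%. Myh4 was not, at 437 CPM at 10 to 20%, 643 CPM at 20 to 40% and 546 CPM above 40%. Genes in general had higher CPM over 20% than at 10 to 20%, as given below. The Myh4 values are therefore read relative to that and do not show a rise particular to Myh4. The windows are chr11:67237562-67237811, chr7:19410844-19411093 and chr7:30183921-30184170. Capitals mark the E-box CANNTG, the core sequence that MyoD and myogenin bind, searched on both strands.
Myh4: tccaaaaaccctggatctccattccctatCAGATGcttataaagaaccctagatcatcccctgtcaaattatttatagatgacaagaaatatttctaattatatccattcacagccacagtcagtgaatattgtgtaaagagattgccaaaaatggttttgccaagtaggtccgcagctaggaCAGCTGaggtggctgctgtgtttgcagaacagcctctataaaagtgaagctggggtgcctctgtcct
Ckm: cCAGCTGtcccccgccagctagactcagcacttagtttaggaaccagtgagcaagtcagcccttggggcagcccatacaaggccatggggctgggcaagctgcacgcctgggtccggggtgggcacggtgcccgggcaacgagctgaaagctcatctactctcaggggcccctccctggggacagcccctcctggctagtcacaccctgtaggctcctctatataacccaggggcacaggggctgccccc
Cox7a1: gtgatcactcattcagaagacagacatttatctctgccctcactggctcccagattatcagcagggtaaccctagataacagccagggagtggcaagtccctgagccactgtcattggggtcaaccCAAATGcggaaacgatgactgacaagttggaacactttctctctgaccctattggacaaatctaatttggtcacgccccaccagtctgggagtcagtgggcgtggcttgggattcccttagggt
The Myh4 window held 2 E-boxes, and those of Ckm and Cox7a1 held 1 each. An E-box was in 66.04% of the 27025 RefSeq promoter windows of that length, so its presence sets none of the 3 apart. A match is a description of the letters only.

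The rule itself fixed the following values, which are given as a description. The mt- share of the 421 barcodes ran from 10.015 to 98.731% with a median of 16.98%, against a median of 3.67% in the low set. Their UMIs ran from 8047 to 120430 with a median of 19660, close to the low set's 20770. UMIs of all other genes ran from 304 to 108045, with a median of 14437 against 20003. The median number of genes found was 3576 against 4077. None of the 421 barcode sequences (0) occurred among the MEF barcodes with at least 1000 UMIs, and 16 of all 9540 did. Scrublet called 23 of the 421 doublets (5.46%) and 393 of the low set (4.31%), and these were kept.

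The threshold did not separate 2 distinct groups. The 117 barcodes at 9 to 10% had a median of 31560 UMIs of other genes, and the 66 at 10 to 11% had 30584.5. Just outside, genes of the myocyte list took 9.74% of other UMIs and ribosomal protein genes 24.6%. Just inside, they took 10.1% and 23.5%.

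The 421 barcodes were uneven. The 181 at 10 to 15% mt- held a median of 27423 other UMIs, above the low set. At 15 to 20% the 49 barcodes held 23113, at 20 to 40% the 100 held 12980, and above 40% the 91 held 1955. Within the low set the median had gone the other way, from 18188 below 2.5% to 34626 at 7.5 to 10%. The UMI minimum counts mt- UMIs, so a barcode with a high mt- share could pass it with few other UMIs.

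**Figure D1:**
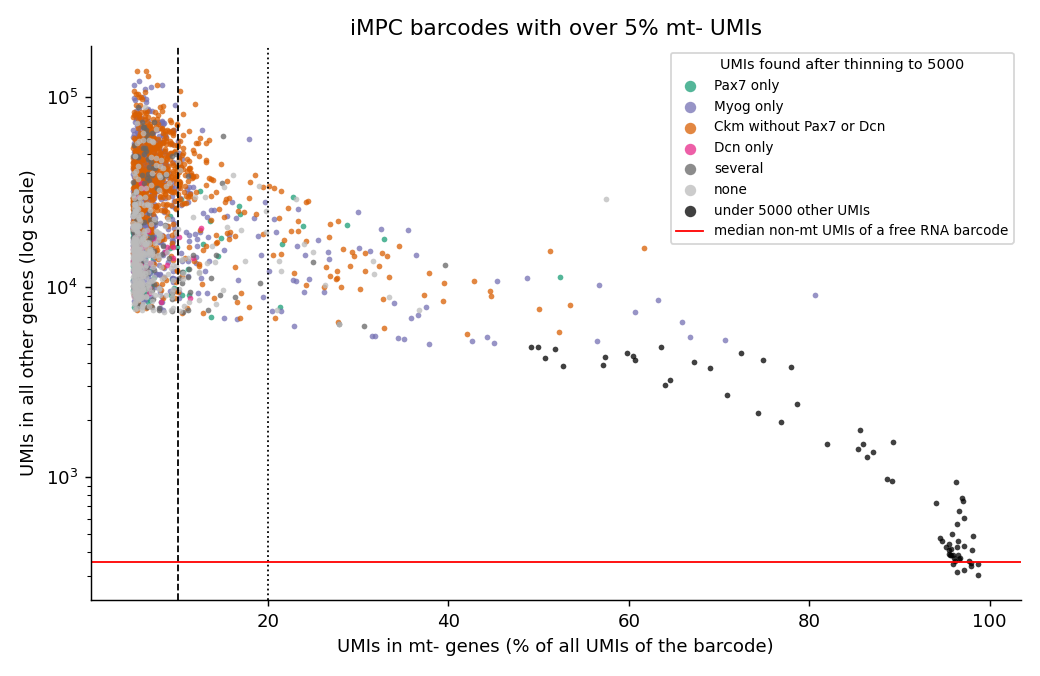
Each point is an iMPC barcode above the UMI minimum with over 5% mt- UMIs; the x axis is its mt- share in percent, the y axis its UMIs of other genes on a log scale, and the colour its stage class. Dashed and dotted lines mark 10% and 20%. The red line marks 358 other UMIs, the median total of free RNA barcodes less their summed mt- share, which the points at the far right approach.

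Above 40%, 38 barcodes held under 1000 other UMIs, a division made after the values were seen. They had 304 to 971 other UMIs, with a median of 416.5, beside a median of 10876.5 mt- UMIs. Barcodes of 200 to 600 UMIs, taken to hold RNA free in the suspension, had a median of 430 UMIs. At their summed mt- share of 16.7% this corresponds to 358 other UMIs, or 85.9% of the median of the 38. The chosen window of 200 to 600 UMIs in part sets that value. The makeup of these other UMIs was close to free RNA: ribosomal protein genes took 28.7% against 30.9% in free RNA, myocyte genes 5.995% against 5.86%, and G2 and M phase genes 0.16% against 0.12%. Stage cannot be read in these 38 barcodes.

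The other 53 barcodes above 40% held a median of 4822 other UMIs, of which free RNA at 358 UMIs would be 7.42%. Their ribosomal protein genes took 14.9% of summed other UMIs, below the free RNA share of 30.9%, with a median of 7.75% per barcode. The makeup of the mt- UMIs differed too. mt-Co1, a cytochrome c oxidase subunit, took 16.8% of mt- UMIs in the low set and 16.7% at 10 to 20% mt-. Its share was 14.9% at 20 to 40%, 12.007% in the 53 and 8.32% in the 38, beside 9.54% in free RNA. mt-Co3, another subunit of the enzyme, took 15.9%, 15.6%, 17.5%, 17.9% and 20.6% in the same order, and 21.9% in free RNA.

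To ask which stages held high-mitochondrial barcodes, UMIs were compared after thinning each barcode to 5000 UMIs of other genes, so that all had 1 depth. This left 354 of the 421, since 67 held fewer, and all 9119 of the low set. Their median depths before thinning were 17160 and 20003. Ckm and Myog were found more often in the high set than in the whole low set, and Pax7 and Dcn less often. Ckm had a UMI in 48.6% of high barcodes (43.3 to 53.9%) and in 13.4% of low ones (12.7 to 14.1%). Myog had one in 67.5% (62.4 to 72.4%) against 40.8% (39.8 to 41.9%). Pax7 had one in 10.5% (7.47 to 14.1%) against 21.1% (20.3 to 21.9%), and Dcn in 2.82% (1.36 to 5.13%) against 7.94% (7.39 to 8.51%). None of the 4 pairs of intervals overlapped.

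The same contrast was present below the threshold. The 396 low-set barcodes at 7.5 to 10% had Ckm in 52.3% (47.2 to 57.3%), Myog in 74.7% (70.2 to 78.95%), Pax7 in 5.05% (3.11 to 7.69%) and Dcn in 2.78% (1.39 to 4.92%). The 230 high barcodes at 10 to 20% had 50.4% (43.8 to 57.1%), 63.0% (56.5 to 69.3%), 12.2% (8.24 to 17.1%) and 3.48% (1.51 to 6.74%). Across the threshold, Myog was thus lower and Pax7 higher, with intervals that did not overlap in this draw, and those of Ckm and Dcn overlapped. At a thinning to 2000 the intervals of Myog and Pax7 overlapped too. Pax7 was then at 4.78% (2.41 to 8.40%) inside and 2.02% (0.876 to 3.94%) outside the threshold. At 500 it was at 0.435% and 0.505%. The Pax7 difference is therefore not firm.

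Free RNA gives some UMIs in cells that lack a gene. Among low-set barcodes with 3 or more Dcn UMIs (median depth 16152), 13.0% had a Myog UMI and 3.99% a Ckm UMI. Among those with 3 or more Ckm UMIs (median depth 38128), 3.79% had a Pax7 UMI and 2.52% a Dcn UMI. Pax7 had a UMI in 11.7% (8.74 to 15.3%) of the low-set barcodes with 3 or more Dcn UMIs. The Dcn share of the high set was thus near its background, and those of Myog and Ckm were above theirs. Of the 10 high barcodes with a Dcn UMI, however, 6 held 3 or more after thinning. A share near the background therefore does not make each of these barcodes background. The Pax7 share of the high set was above that of the Ckm group but not above that of the Dcn group. Without thinning, the shares were 63.6% against 26.6% for Ckm, 85.9% against 60.9% for Myog, 19.2% against 49.3% for Pax7, and 5.37% against 11.9% for Dcn. Over 20 further random draws of the thinning the differences were 31.5 to 37.9 percentage points for Ckm, 24.1 to 31.8 for Myog, -15.4 to -11.2 for Pax7 and -5.67 to -3.53 for Dcn. The draw used gave -10.6 for Pax7, outside that range.

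At a thinning to 2000, which keeps 45 of the 91 barcodes above 40%, Myog was found in 75.6% of these 45 (60.5 to 87.1%), in 48.0% of the 100 at 20 to 40% (37.9 to 58.2%) and in 46.1% at 10 to 20% (39.5 to 52.8%). Ckm was found in 24.4% (12.9 to 39.5%), 30% (21.2 to 39.98%) and 35.2% (29.1 to 41.8%). Dcn was found in 0 of 45, 0 of 100 and 2.61%. In the low set the values were 31.4% for Myog, 7.39% for Ckm and 5.97% for Dcn. Its barcodes at 7.5 to 10% had 56.8% (51.8 to 61.8%), 33.6% (28.9 to 38.5%) and 2.27%. Pax7 was found in 4.44% of the 45, 4% of the 100 and 4.78% at 10 to 20%. The Pax7 share was 9.80% in the low set and 2.02% in its barcodes at 7.5 to 10%.

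Read the other way, the Ckm class had the highest share of barcodes above 10%. Classes were exclusive and set from the thinned UMIs: Pax7 only, Myog only, Ckm without Pax7 or Dcn (with or without Myog), Dcn only, several, and none of the 4 genes. In the Ckm class 165 of 1265 barcodes were over 10%, or 13.0% (11.2 to 15.02%). In the Myog only class 99 of 2390 were, or 4.14% (3.38 to 5.02%). In the Pax7 only class 20 of 1394 were, or 1.43% (0.879 to 2.21%), and in the Dcn only class 4 of 508, or 0.787% (0.215 to 2.004%). The class with none of the 4 genes had 44 of 3227, or 1.36%. The intervals of the Ckm, Myog only and Pax7 only classes did not overlap, whereas those of Pax7 only and Dcn only did. Over 20 draws, the share ran from 12.01 to 13.7% in the Ckm class, 4.27 to 5.24% in the Myog only class and 0.712 to 1.41% in the Pax7 only class. The draw used was below the range for Myog only and above it for Pax7 only.

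**Figure D2:**
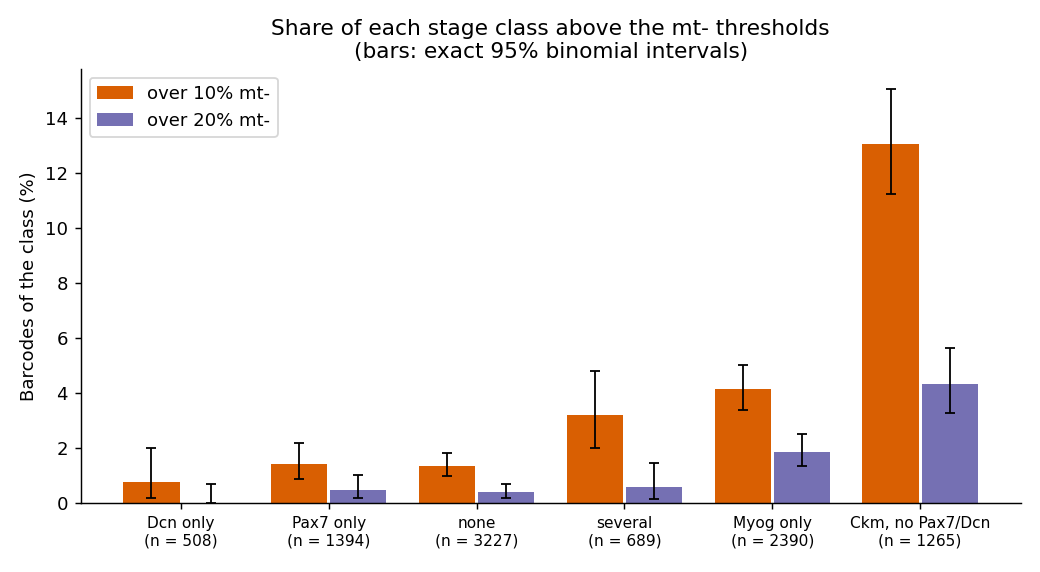
Bars give the percent of barcodes of each stage class with over 10% (orange) and over 20% (violet) mt- UMIs, with exact 95% binomial intervals; numbers of barcodes stand under each class. The Ckm class stands highest at both thresholds, at 13.0% and 4.35%, and the Dcn only class has 0 of 508 above 20%, which allows up to 0.724%.

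UMIs of other genes follow in part from the rule and are given by stage as a description. UMIs of other genes were lower in high barcodes of the Myog only class (median 14735 against 22725, 0.648 times; 0.609 to 0.676 over 20 draws) and of the Ckm class (26075 against 31303, 0.833 times; 0.776 to 0.914). In the Pax7 only class they were 17345 against 17931.5, or 0.967 times, but with 20 barcodes the draws ran from 0.653 to 1.001, a range that holds the values of the Ckm class and part of those of the Myog only class. The ratio was 0.945 in the Dcn only class, 0.750 in the class with none of the 4 genes and 0.620 in the class with several. The minimum on all UMIs and the minimum of 5000 other UMIs cut both sets, so barcodes with still fewer UMIs are not in these medians.

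Barcodes over 20% mt- of the Myog only and Ckm classes had lower counts of other genes and a different makeup. In the Ckm class the 55 barcodes over 20% had a median of 12856 other UMIs, against 34109 in the 110 at 10 to 20% and 31303 in the 1100 at or below 10%. Ribosomal protein mRNAs, short and abundant messages of the cytoplasm, took a median of 7.10% of other UMIs over 20%, 19.9% at 10 to 20% and 27.1% at or below 10%. In the Myog only class the medians of other UMIs were 9437 (45 barcodes), 19298 (54) and 22725 (2291), and the ribosomal shares were 7.43%, 28.1% and 31.6%. The median share of myocyte genes in this class also differed, at 8.64%, 5.70% and 1.04% in the same order. In the Ckm class it was 12.1%, 12.2% and 7.29%. Barcodes of 1 class were thus not at the same stage across these groups, and the Myog only barcodes over 20% are not simply myoblasts.

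The 7 Pax7 only barcodes over 20% differed from these. Their ribosomal share had a median of 29.2% and ran from 23.8 to 40.2%, against 31.7% in the 13 at 10 to 20% and 33.0% in the 1374 at or below 10%. Their other UMIs, with a median of 17853, were close to the 17931.5 of that low group. In the class with none of the 4 genes, 13 barcodes over 20% had a ribosomal share of 29.7% beside 32.3% in the low set, and 12096 other UMIs beside 18284. Over the 20 draws, with 2 to 8 Pax7 only barcodes, the median ribosomal share over 20% was 27.0 to 33.8%, while it was 7.09 to 7.56% in the Ckm class and 6.61 to 7.64% in the Myog only class.

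A ribosomal share under 15%, a value chosen after the shares were seen, was found in 140 of the 421 high barcodes (33.3%, 28.8 to 37.98%) and in 24 of the 9119 low ones (0.263%). Over 20% mt-, it was found in 45 of 55 Ckm barcodes (81.8%, 69.1 to 90.9%), 32 of 45 Myog only barcodes (71.1%, 55.7 to 83.6%), 3 of 13 barcodes with none of the 4 genes (23.1%, 5.04 to 53.8%) and 0 of 7 Pax7 only barcodes (upper limit 41.0%). With 2 to 8 Pax7 only barcodes over 20% among the draws, the value for that class is not firm. Ribosomal mRNA did not define the classes, but depth, mt- share and stage differ together here, and their separate parts were not tested.

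Across all genes, 952 of the 8153 that reached 10 CPM in 1 of the sets were at least 2-fold higher in the high set (11.7%) and 710 at least 2-fold lower (8.71%). The median log2 ratio over all genes was 0.01. Had mt- genes been kept in the total, every ratio would be lower by the same amount, a shift of -0.32. Genes are named by a rule on the size of the ratio at 50 CPM or more together with a fixed list, and members of gene lists by the same measure.

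Genes of the myocyte list were higher. Of the 24 myocyte genes tested 23 were at least 2-fold higher, with a median log2 ratio of 1.99, and together they took 9.23% of other UMIs against 2.93%. Myh8, the perinatal myosin heavy chain, was at 3606 against 419 CPM (3.11), and Myh1, the IIX form, at 1513 against 189 CPM (3.002). The myosin heavy chains, like the actins, are near-copies of each other that can share reads, so the level of any 1 of them is uncertain. Myh3, the embryonic form, had a log2 ratio of 2.22, and Acta1, skeletal actin, was at 13751 against 4477 CPM (1.62). Cmya5, a protein of the Z-disc region, had 3.13, Casq1, the calcium store protein calsequestrin, 2.87, Pvalb, the calcium buffer parvalbumin, 2.93, and Cacna1s, the calcium channel of the T-tubule, 2.82. Other leading genes were Atp1b4 (3.09), Sypl2 (2.90), Mlf1 (2.89), Myot (2.83), Myh2 (2.82), Cd24a (2.82) and Myom2 (2.82). After thinning to 5000, Myh4 had a UMI in 47.5% of high barcodes (42.2 to 52.8%) and 5.23% of low ones (4.78 to 5.71%), beside 0.998% of low-set barcodes with 3 or more Dcn UMIs. Without thinning the shares were 63.3% and 13.2%.

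Genes of commitment stood between. Myog itself was level, at 591 against 599 CPM (-0.02, -0.06 to 0.02), although more high barcodes held it, and it had 1.97 among barcodes of 5000 to 15000 other UMIs. Myod1, which starts myogenesis, was at 137 against 168 CPM (-0.30). Mymk, the fusion protein myomaker, was at 426 against 230 CPM (0.89), Mef2c, a muscle transcription factor, had 1.61, and Cdkn1c, a cell cycle inhibitor, -1.003. Of 12 committed myoblast genes 2 were at least 2-fold higher and 1 lower. Satellite cell genes were mostly lower: 6 of the 12 tested were at least 2-fold lower and 2 higher, with a median of -0.995. Pax7 was at 17.2 against 48.1 CPM (-1.49, -1.74 to -1.24), Myf5 had -0.74, and the receptors Notch1 and Fgfr4 had -1.45 and -1.41. Itga7, the laminin receptor of muscle, was on the other side at 1.30.

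Proliferation genes were lower together: all 22 of 22 G2 and M phase genes and 16 of 18 S phase genes were at least 2-fold lower, with medians of -1.74 and -1.46. Mki67 was at 26.6 against 88.9 CPM (-1.74) and Top2a, a topoisomerase of dividing cells, at 65.5 against 227 CPM (-1.79). Replication-dependent histones led, with Hist1h1b at -2.77, Hist1h2ae at -2.51 and Hist1h2ap at -2.29, and Lmnb1, Cdc20, Smc2, Cdca8 and Cdca3 lay between -1.98 and -1.79. Between high and low barcodes that both held 5000 to 15000 other UMIs the direction turned: the G2 and M phase median was 0.13, Mki67 0.34 and Top2a 0.60.

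Fibroblast genes were lower in 12 of 13 (median -1.49). Dcn was at 19.9 against 69.3 CPM (-1.80), Col1a1, a chain of collagen I, at 24.1 against 84.4 CPM (-1.81), and Col3a1 had -1.35. Single barcodes weighed on such sums: of 156 Dcn UMIs at 10 to 20%, 63 came from 1 barcode (40.4%). Of the smooth muscle genes, Tagln had -2.31 and Acta2 -1.63. Crabp1 (-2.31), Fabp5 (-1.85), Cck (-1.82) and Tagln2 (-1.82) were the other leading genes on that side. The ubiquitous actins Actb (-1.41) and Actg1 (-1.47) were lower, and the glycolytic enzyme Gapdh was level (-0.06).

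Of the other cell types, most had markers near 0. Summed endothelial genes were at 1.24 CPM in the high set and 0.44 in the low set, immune genes at 3.61 and 2.28 with Ptprc at 0 in the high set, glial genes at 4.36 and 2.74, epithelial genes at 0.996 and 0.40, red blood cell genes at 0.25 and 0.12, and adipocyte genes at 2.49 and 2.84. The 4 neuron genes were at 73.8 and 182 CPM.

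**Figure D3:**
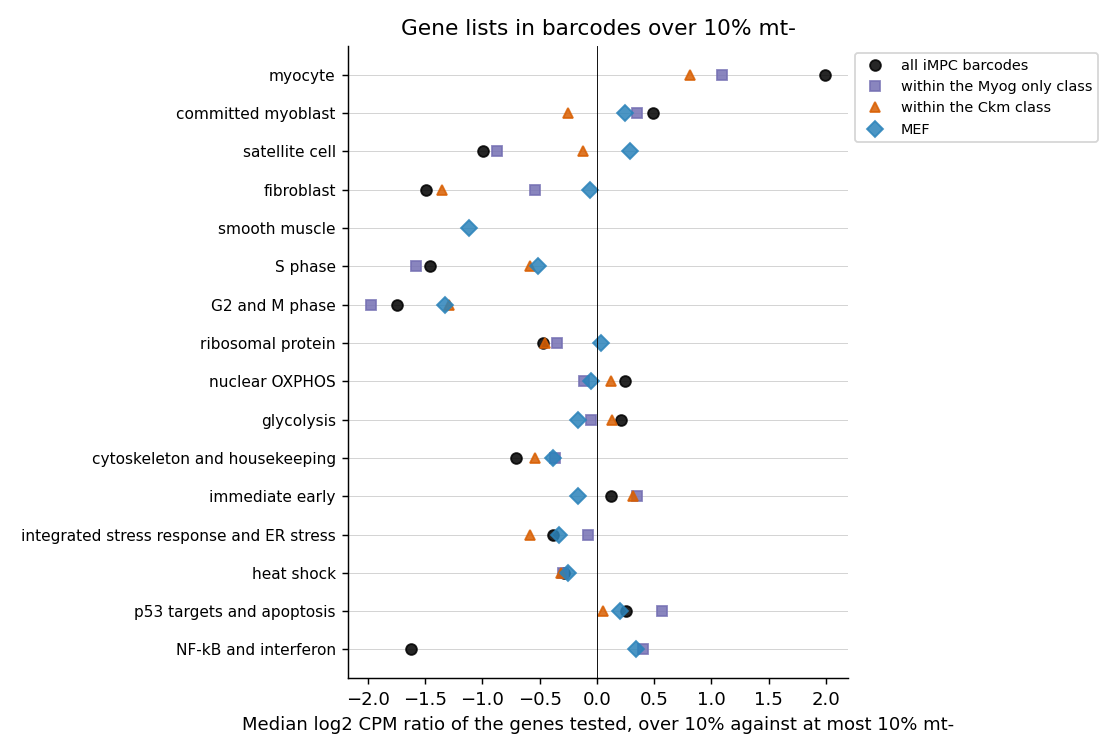
Points give the median log2 CPM ratio of the genes tested in each list, barcodes over 10% against barcodes of at most 10% mt-, for all iMPC barcodes, within the Myog only and Ckm classes and in MEF (lists with fewer than 3 genes tested are left out). Myocyte genes stand right of 0 in the 3 iMPC comparisons, at 1.99, 1.10 and 0.81, and G2 and M phase genes left of 0.

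Stress genes did not stand out as a group. Gadd45b, a stress and growth arrest gene proposed as a marker of these barcodes, went against that label: it was at 46.4 against 55.8 CPM (-0.26, -0.42 to -0.12). After thinning it had a UMI in 19.5% of high barcodes (15.5 to 24.0%) and 18.1% of low ones (17.3 to 18.9%), and these intervals overlap. Its ratio was -0.77 within the Myog only class and -0.84 within the Ckm class, but 0.11 at a threshold of 15%, 0.09 with each barcode's own CPM and 0.70 among barcodes with 5000 to 15000 other UMIs. Gadd45a had 0.34 and Gadd45g -0.31.

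The 22 immediate early genes summed to 1718 CPM in the high set and 1702 in the low set, and of the 21 tested 1 was at least 2-fold higher and 1 lower. Atf3, a stress-induced repressor, was at 50.7 against 24.6 CPM (1.04, 0.89 to 1.19), Fos at 130 against 77.3 CPM (0.75), and Btg2 had 0.95. Jun had -0.58 and Klf6 -0.95. Of 17 genes of the integrated stress response and ER stress 0 were at least 2-fold higher and 1 was lower, with Ddit3 at -0.54, Ddit4 at -0.83, Phgdh at -0.65 and Herpud1 at 0.64. Among 15 heat shock genes the 3 at least 2-fold higher were the small heat shock proteins Hspb8 (1.45), Cryab (1.19) and Hspb1 (1.13), which skeletal muscle also expresses, whereas the inducible Hspa1a had -0.86. Of 15 p53 and apoptosis genes 2 were at least 2-fold higher. Eda2r, a receptor of the TNF family and a p53 target, was at 60.1 against 16.7 CPM (1.85), the cell cycle inhibitor Cdkn1a had 0.26, Ccng1 0.75 and the apoptosis effector Bax -0.85. Of 9 NF-kB and interferon genes 5 were at least 2-fold lower and 1 was higher, at low levels that summed to 117 against 235 CPM. Nfkbia had -0.61, and Cxcl10 had 9 UMIs in the high set and 662 in the low set. Of 16 oxidative stress genes 2 were lower, with Txnrd1 at -0.93 and Prdx1 at -0.78.

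Energy metabolism genes encoded in the nucleus differed little as a group. The oxidative phosphorylation (OXPHOS) list had a median of 0.25, which was -0.08 over the total of all genes and -0.09 at a threshold of 15%, and of its 93 genes 3 were at least 2-fold higher and 3 lower. The muscle forms Cox7a1 (1.996), Cox8b (1.75) and Cox6a2 (1.62) were the most different of its members at 50 CPM or more. Among 16 glycolysis genes 4 were higher, among them the muscle forms Pgam2 (1.81), Pfkm (1.74) and Eno3 (1.49). Genes of mitochondrial biogenesis and import had a median of 0.10, with Vdac1 at 0.34 and Tomm40 at -0.41. Of 9 mitophagy genes Map1lc3a, an autophagosome protein, was the 1 at least 2-fold higher (1.55), and Bnip3 had 0.73. Ribosomal protein genes summed to 21.6% of other UMIs against 30.2%, with a median of -0.47, and Rpl12 (-0.92), Rpl3 (-0.85) and Rps12 (-0.84) were the most different at 50 CPM or more. Malat1 and Neat1, which stay in the nucleus, were not analysed here.

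**Figure D4:**
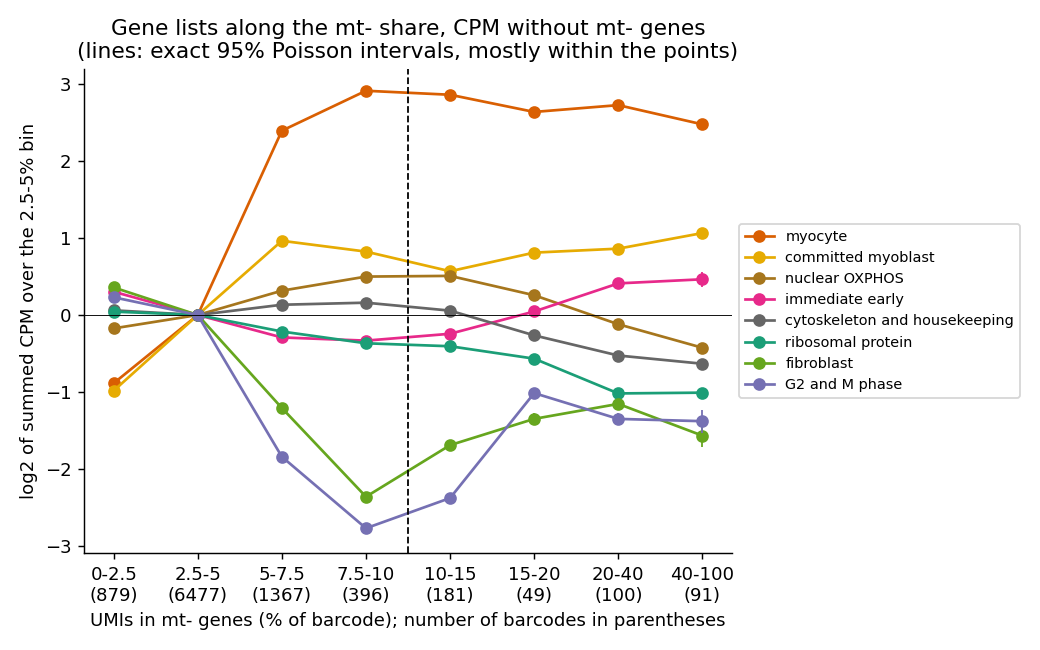
Lines give the log2 of the summed CPM (without mt- genes) of 8 gene lists in bins of mt- share, relative to the 2.5 to 5% bin, with exact Poisson intervals; the dashed line is the 10% threshold. Myocyte genes are already at 10.0% of other UMIs at 7.5 to 10% beside 9.67% at 10 to 15%, and ribosomal protein genes go from 24.4% to 23.7% across the threshold.

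Within a stage class, myocyte genes were still higher in the high barcodes and proliferation genes lower. In the Myog only class 1040 of 7975 genes were at least 2-fold higher (13.0%) and 334 lower (4.19%), with a median over all genes of 0.17. Myocyte genes had a median of 1.10 (13 of 24 at least 2-fold higher) and G2 and M phase genes -1.97 (22 of 22 lower). Leading genes were Myh4 (2.69), Dmd (2.63), which encodes dystrophin, Amot (2.59), Cacna1s (2.57) and Rbfox1 (2.56), a splicing factor. On the other side were Hist1h2ae (-4.43, with 5 UMIs in the high set), Hist1h2ap (-3.55), Mki67 (-2.75), Lmnb1 (-2.74) and Tagln (-2.65).

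In the Ckm class 517 of 7297 genes were at least 2-fold higher (7.09%) and 179 lower (2.45%), with a median over all genes of 0.18. Myh4 was at 693 against 148 CPM (2.23, 2.17 to 2.29), followed by Scn2a (2.16), Armh4 (2.01), Mlf1 (1.98) and Ache (1.86), the acetylcholinesterase of the neuromuscular junction. Of the fixed lists in this class, 2 of 11 committed myoblast genes and 2 of 8 satellite cell genes were at least 2-fold lower and 0 higher. Cdkn1c was at 450 against 2268 CPM (-2.33), Acta2, the smooth muscle actin that early muscle also expresses, at 122 against 893 CPM (-2.87), and Myog at 512 against 1081 CPM (-1.08). Cck (-3.36), Tagln (-3.34) and Cavin2 (-2.41) were also on that side. Ckm itself, which defined the class, had 0.94. Immediate early genes had medians of 0.35 in the Myog only class and 0.32 in the Ckm class, with 2 of 21 and 3 of 18 at least 2-fold higher.

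For a stage-matched comparison, the low set was given the class makeup of the high set. This reduced the genes at least 2-fold higher to 481 of 7714 (6.24%) and those lower to 60 (0.778%). Myh4 (2.33) and Myh8 (2.02) still led. The myocyte median went from 1.99 to 0.97 and that of G2 and M phase genes from -1.74 to -0.92. The classes rest on UMIs of 4 genes, and the share of myocyte genes still differed within them. In the Myog only class its median was 1.04% at most 10% mt- and 5.70% at 10 to 20%. Stage was therefore matched only in part.

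Among the high barcodes themselves, those over 20% mt- were set against those at 10 to 20%. Of 8553 genes 1914 were at least 2-fold higher over 20% (22.4%) and 83 lower (0.970%), with a median over all genes of 0.58, so ratios are read relative to it. Ribosomal protein genes had a median of -0.57 and took 15.5% of other UMIs against 23.3%, and nuclear OXPHOS genes had -0.61, with 13 of 93 at least 2-fold lower. Cox7a1 was at 49.1 against 204 CPM (-2.06, -2.39 to -1.74), and Chchd10, a mitochondrial protein, had -1.69. Other lower genes encode small muscle proteins: Pvalb (-1.57), Smpx (-1.56), Myoz2 (-1.43), and Mrln (-1.36), a small inhibitor of the calcium pump. Map1lc3a had -1.50, Cox8b -1.46, Chchd7 -1.67, Atp5g1 -1.28, Gapdh -0.85 and Ckm -0.84.

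On the higher side, Gm37899 was at 369 against 62.8 CPM (2.56, 2.37 to 2.74); the annotation calls it TEC, an unverified transcript, on chromosome 12. It was followed by Dqx1 (2.37), Fry (2.27), Gm43185 (2.23), Gm37376 (2.15), Ptprf (2.10), Xpo6 (2.08), Dcx (2.06), Ap3m1 (2.02) and Nfat5 (2.01). Dmd, among the longest genes, was at 307 against 95.7 CPM (1.68). The embryonic and perinatal myosins Myh3 (1.42) and Myh8 (1.18) were higher, and Myog had 0.74. Immediate early genes had a median of 0.58, equal to that of all genes, and Atf3 had 1.03, Fos 0.81 and Cdkn1a -0.80. Myocyte genes had 0.14, with 6 at least 2-fold higher and 3 lower.

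The ratio over 20% against 10 to 20% followed the gene's span on the genome, introns included. The median log2 ratio was 0.01 for 961 genes of up to 5 kb, 0.36 at 5 to 20 kb, 0.64 at 20 to 50 kb, 0.82 at 50 to 100 kb and 0.89 for 1111 genes over 100 kb. Of the last, 436 were at least 2-fold higher and 0 lower, and they took 9.45% of other UMIs against 5.12%. Genes of up to 5 kb took 27.1% against 38.4%. The order was also found within the Myog only class (0.16 to 0.998) and the Ckm class (-0.14 to 1.07), with free RNA subtracted (0.00 to 0.92), and with the mean of each barcode's own CPM (-0.11 to 0.73). Against the low-set barcodes at 7.5 to 10%, the medians went from -0.01 to 0.26 for barcodes at 10 to 20%, from 0.03 to 1.10 at 20 to 40% and from 0.07 to 1.496 above 40%. For all barcodes over 10% against those of at most 10%, they went from -0.14 to 0.23 in iMPC and from -0.05 to 0.21 in MEF. Genes entered at 10 CPM in either set. Against 7.5 to 10%, the genes tested numbered 7207 for 10 to 20%, 8356 for 20 to 40% and 8733 above 40%. The barcodes above 40% held 336883 other UMIs in all, so genes near 10 CPM there rest on few UMIs. Such genes can enter through the set where they are high, and how far this raised the medians was not tested. Genes share barcodes and depth and are not replicates, and spliced and unspliced RNA were not counted apart in the matrix.

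**Figure D5:**
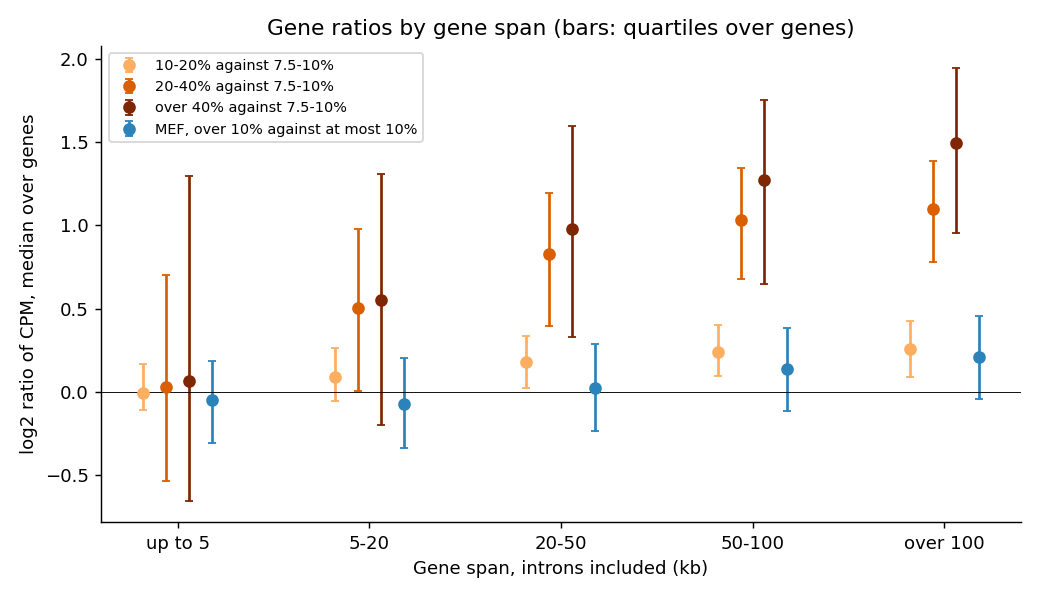
Points give the median log2 CPM ratio of genes by span in kb, with quartiles over genes as bars, for iMPC barcodes at 10 to 20%, 20 to 40% and over 40% mt- against those at 7.5 to 10%, and for MEF barcodes over 10% against those of at most 10%. For genes over 100 kb the medians are 0.26, 1.10, 1.496 and 0.21, and for genes of up to 5 kb all lie within 0.07 of 0.

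In the MEF library the same rule found 135 of 5390 barcodes (2.505%), with Myh4 and Ckm at 0 UMIs. How the 6113 MEF barcodes were selected before deposit is not stated, which limits this comparison. Of 8252 genes 185 were at least 2-fold higher (2.24%) and 130 lower (1.58%). The leading genes were Stmn2 (3.39), Masp1 (3.05), Mgp (2.94), Igfbp3 (2.84) and Nrn1 (2.72). On the other side were Ankrd1 (-1.82), Hmgb2 (-1.60), Tagln2 (-1.57), Acta1 (-1.56) and Ube2c (-1.54). Ribosomal protein genes (median 0.03), nuclear OXPHOS genes (-0.05) and fibroblast genes (-0.06) were level. At a threshold of 15% the medians were -0.92 for ribosomal protein and 1.002 for fibroblast genes. The upper quartile of the mt- share of the 135 barcodes was 12.2%, so values at 15% rest on a minority of them. G2 and M phase genes had a median of -1.32 with 13 of 16 at least 2-fold lower, Gadd45b had -0.49 and Tagln -0.96. The MEF barcodes over 10% had a median of 16940 other UMIs against 19002.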

How the data were processed

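Per the file headers, Cell Ranger wrote the deposited values, which are UMI counts without normalization; the submitters' processing notes name Cell Ranger 4.0, Seurat 3.2.3 and GRCm38.p6. Libraries were made with the 10x Single Cell 3′ kit v3, per the labels' protocols. The iMPC matrix has 282903287 UMIs over 2707590 of its 6794880 barcodes, and the MEF matrix 118541302 UMIs over 6113 barcodes. The UMI minimum follows earlier work on these data and was applied to the total of all genes. Of the MEF labels, the sample's own treatment entry was used, since its protocol text repeats that of the iMPC sample. The members and gene lists were chosen with earlier results of these data known.

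UMIs were summed over the barcodes of a set and divided by the total without the 13 mt- genes. Log2 ratios have exact conditional Poisson intervals, and shares exact Clopper-Pearson intervals, at 95%. With 1 library per group no test was run. Genes reaching 10 CPM in either set entered counts of 2-fold differences. Named genes were 25 fixed genes (23 listed), the 15 largest ratios in each direction, 5 in each direction within a class and in MEF, and 3 per list, at 50 CPM or more; the genes named for barcodes over 20%, and others, were chosen after their values were seen. Of the leading genes, 1 is not reported here. The comparison over 20% against 10 to 20% was added after the data were seen. Thinning was without replacement to 5000 UMIs of other genes. A count of 0 allows up to 3 counts. Free RNA was profiled in 48846 barcodes of 200 to 600 UMIs (median 430). Of 26100 genes, 25989 had a GENCODE M21 position. RefSeq promoters matched all 3 genes looked up. Doublets were scored with Scrublet, which marked 416 of 9540 (4.36%). The ratio calculation was tested on simulated data. Python 3.11.15, numpy 2.4.6, scipy 1.17.1, pandas 2.3.3 and scanpy 1.11.5 were used. Alternatives covered thresholds, scaling, doublets, free RNA, thinning and stage makeup.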

Additional observations from a re-analysis of the deposited data

Results flagged for a closer look

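A signal was present in iMPC barcodes that the comparisons above did not use. Of 4884 barcodes from 1000 UMIs up to the UMI minimum, 2108 had over 10% mt- UMIs, or 43.2% (41.8 to 44.6%), against 4.41% above the minimum; a count of 0 would have allowed 0.0614%. By UMIs, the share over 10% was 46.2% at 1000 to 2000, 41.1% at 2000 to 5000, 33.0% from 5000 to the minimum and 10.6% from there to 12000. It was 3.19% at 12000 to 20000 and 3.38% at 20000 to 40000, and higher again, at 6.73%, at 40000 or more. Both quantities are those the choice of barcodes used. Free RNA barcodes of 200 to 600 UMIs held 16.7% mt- UMIs in all, itself above 10%. The source of the low-UMI barcodes was not tested.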

How the results depend on the processing

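Of 230 alternative values for the main results, 138 moved by less than their counting interval or kept their count within 1.5 times, 91 moved and 1 reversed; of 643 for single genes and lists, 6 reversed. Only main values of at least 2-fold counted as reversed. Another 48 values with a smaller main value changed sign, 3 of them of Gadd45b (0.11 at a threshold of 15%, 0.09 by own CPM, 0.70 at 5000 to 15000 other UMIs). No paired analysis was possible because each group is 1 library, and no replicate could be left out.

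Genes at least 2-fold higher in the high set, 952 in the main setting, numbered 1814 at a threshold of 15%, 2427 at 20%, 1516 with each barcode's own CPM, 555 over the total of all genes, 481 against the stage-matched low set and 1936 among barcodes of 5000 to 15000 other UMIs. Lower genes, 710 in the main setting, numbered 405 at 15%, 1244 over the total of all genes, 1096 without mt- and ribosomal protein genes, 60 stage-matched and 453 at 5000 to 15000 other UMIs. Of the 30 leading genes, 10 were shared when 10 CPM sufficed and 5 with no CPM minimum.

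The myocyte median (1.99) was 1.66 at a threshold of 20%, 3.17 against at most 5%, 1.95 at a UMI minimum of 12000, 2.06 without doublets, 2.57 by own CPM, 1.67 over all genes, 1.82 without mt- and ribosomal genes, 1.96 scaled by the median ratio, 0.97 stage-matched and 3.69 at 5000 to 15000 other UMIs. The satellite cell median (-0.995) was -0.58 at 15%, -0.61 at 20%, -1.25 against at most 5%, -1.32 over all genes, -0.23 stage-matched and -0.68 at 5000 to 15000. The G2 and M phase median (-1.74) was -1.02, -1.19, -2.07 and -2.07 under the same first 4 settings, -2.15 without doublets, -1.26 by own CPM, -0.92 stage-matched and reversed to 0.13 at 5000 to 15000; there Mki67 (0.34) and Top2a (0.60) reversed too. Cxcl10 reversed to 0.018 at 15%, 0.36 at 20% and 0.032 stage-matched.

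Differences in the share with a UMI, in percentage points, were for Pax7 (-10.6) -5.27 at a thinning to 2000, -2.20 at 500, -33.2 unthinned, -15.2 with another seed and -3.15 at 2 or more UMIs. For Myog (26.7) they were 18.7, 8.89 and 20.3 in the first 3, 19.6 with mt- UMIs thinned too, 37.9 at 15% and 37.3 at 20%. For Ckm (35.2) they were 25.1, 9.85, 29.2, 28.1 with mt- UMIs thinned and 25.7 at 2 or more UMIs. For Dcn (-5.11) unthinned gave -7.19.

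The percent over the threshold in the Pax7 only class (1.43) was 0.767 with another seed, 0.497 at 15%, 0.566 at 20%, 0.814 at 12000 UMIs and 0.870 at a thinning to 500. In the Myog only class (4.14) it was 5.45 at 2000, 5.95 at 500, 6.50 unthinned, 5.03 with mt- UMIs thinned, 5.02 with another seed, 5.19 at 2 or more UMIs, 2.65 at 15% and 2.12 at 20%. In the Ckm class (13.0) it was 15.7, 18.4 and 10.9 in the first 3, 17.3 at 2 or more UMIs, 6.57 at 15% and 4.80 at 20%. In the Dcn only class it was 0 at 15% and 20%. Of these 4 classes, Ckm stood highest in each of these settings.

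MEF counts (185 and 130) were 57 and 76 at 8%, and 2700 and 653 at 15%, where its G2 and M phase median reversed to 0.91. The MEF values at 15% rest on a minority of the 135 barcodes over 10%. Own CPM gave 1939 higher genes in the Myog only class and 1259 in the Ckm class. Over 20% against 10 to 20%, higher genes numbered 2952 within the Myog only class, and lower genes 229 by own CPM, 746 at 5000 to 15000, 206 within Myog only and 264 within Ckm; the ribosomal median (-0.57) was -0.47, -1.04, -0.95 and -0.94 in these 4, and the OXPHOS median (-0.61) -0.37 at 5000 to 15000 and -0.36 within Myog only. The causes were not tested. Depth limits the classes: 67 high barcodes could not be staged, and the Pax7 only class rests on 20.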
